A study of Mus musculus with 6 samples.

Results

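The interferon-stimulated genes examined here are 34 genes that cells switch on when they sense interferon, and they were chosen by gene symbol. All 34 symbols occurred among the 36144 symbols of the deposited gene table, and all 34 passed edgeR's filter on low counts, so that they made up 34 of the 16069 genes tested. The RNA came from whole inguinal white adipose tissue (iWAT) of 10-week-old female C57BL6/J mice that were fed ad libitum. There were 3 Cebpa_fl/fl and 3 Cebpa_ASKO mice with 1 poly-A selected library each, and both inguinal depots of a mouse were pooled after their lymph nodes had been taken out. Every mouse carried floxed *Cebpa* alleles. The Cebpa_ASKO mice also carried AdipoQ-Cre, which deletes floxed *Cebpa* in cells that express adiponectin, whereas their Cebpa_fl/fl littermates lacked the Cre. Other cells of the depot therefore keep *Cebpa*, and precursors that do not yet express adiponectin keep it too. The labels put all 6 libraries in batch 1.

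Type I interferons bind a receptor made of IFNAR1 and IFNAR2, and the kinases JAK1 and TYK2 on that receptor phosphorylate STAT2. STAT2 joins IRF9 in a complex that binds the interferon-stimulated response element (ISRE) in the promoters of its target genes. The targets include sensors of viral nucleic acid, proteins that block viral translation, assembly or release, and factors such as IRF7 and USP18 that strengthen or damp the response itself. Adipocytes, macrophages and most other cells of a fat depot carry the receptor, so RNA of the whole tissue mixes their contributions. In such RNA, fewer cells of a type and less RNA per cell cannot be told apart.

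The ISRE is shown first because it is a known element of interferon-stimulated genes. Of the 34 members, 25 had a promoter window of 300 bases (250 before and 50 after the start) in the RefSeq table for GRCm38.p6. The letters GAAANNGAAA, searched on both strands, occurred in at least 1 window of 14 of these 25 members (56.0%), against 3.99% of the 27025 symbols with a window. The interferon-gamma-activated site TTCNNNGAA, searched likewise, occurred in 5 of the 25 members (20.0%) against 9.55% of symbols. The 6 members below hold GAAANNGAAA before the start, on either strand. Each run of 90 bases is written 5′ to 3′ along the strand of the gene, and capitals mark the matches, which overlap in *Isg15*, *Oas1a* and *Bst2*.
Isg15 (chr4:156200841-156200930, minus strand): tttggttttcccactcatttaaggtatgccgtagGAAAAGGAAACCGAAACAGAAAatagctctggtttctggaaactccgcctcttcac
Ifit1 (chr19:34640754-34640843, plus strand): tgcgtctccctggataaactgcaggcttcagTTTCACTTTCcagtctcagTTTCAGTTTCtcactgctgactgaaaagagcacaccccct
Ifit3 (chr19:34583350-34583439, plus strand): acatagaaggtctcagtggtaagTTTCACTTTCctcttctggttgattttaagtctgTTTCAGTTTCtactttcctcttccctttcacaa
Oas1a (chr5:120907526-120907615, minus strand): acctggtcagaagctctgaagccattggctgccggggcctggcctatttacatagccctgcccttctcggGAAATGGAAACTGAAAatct
Rsad2 (chr12:26456523-26456612, minus strand): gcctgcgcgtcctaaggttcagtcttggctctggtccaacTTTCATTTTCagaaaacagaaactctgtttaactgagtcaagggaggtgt
Bst2 (chr8:71537550-71537639, minus strand): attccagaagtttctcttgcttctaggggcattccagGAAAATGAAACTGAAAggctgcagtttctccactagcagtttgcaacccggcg
In *Isg15* there were 3 overlapping matches, the first beginning 78 bases before the start, and in *Ifit1* there were 2 separate ones. *Irf7*, *Irf9*, *Ifit2*, *Oasl1*, *Oasl2*, *Cmpk2*, *Herc6*, *Ifi44*, *Ifi35*, *Xaf1* and *Psmb8* had no match in their windows, which says only that these letters are absent there. Such matches describe the sequence and are no measure of binding in these tissues. The members were chosen as interferon-stimulated genes, so their high share with GAAANNGAAA is no finding about these libraries.

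The 6 libraries held between 33141769 and 49477671 estimated counts. Values per library are given below in the order of replicates 1, 2 and 3, as CPM (counts scaled to a common library size) after edgeR's TMM scaling unless TPM is named. *Cebpa*, on chromosome 7 from 35119293 to 35121928, was at 448, 465 and 498 CPM in Cebpa_fl/fl and at 37.7, 45.8 and 37.2 CPM in Cebpa_ASKO, so each library matched its genotype label. Its log2 fold change was -3.55 (adjusted p = 0.000163, edgeR's quasi-likelihood test, adjusted after Benjamini and Hochberg). Of 10 adipocyte markers, all were detected in every library, and 5 (*Adipoq*, *Plin1*, *Cidec*, *Pparg* and *Lpl*) were called lower in Cebpa_ASKO, where called means an adjusted p below 0.05. Markers of T and NK cells summed to 151 CPM and B cell markers to 547 CPM in Cebpa_fl/fl 1, against at most 31.1 and 96.8 CPM in any other library. All 6 skeletal muscle markers were called higher in Cebpa_ASKO.

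For the interferon-stimulated genes, 2 libraries stood apart, 1 in each genotype. Cebpa_fl/fl 2 was the highest of its genotype for 34 of 34 members, and Cebpa_ASKO 3 was the highest of its genotype for 33 of 34, all but *Ifi27l2a*. Both held together for 33 members, against 2471 of the 16069 genes tested (15.4%). Singly, Cebpa_fl/fl 2 was the highest of its genotype for 37.0% of all genes tested and Cebpa_ASKO 3 for 33.2%. Summed over the 33 members without *Ifi27l2a*, the level stood at 1103, 2338 and 1080 CPM in Cebpa_fl/fl and at 1094, 1062 and 2252 CPM in Cebpa_ASKO. The other 4 libraries, from both genotypes, thus lay between 1062 and 1103 CPM, and the 2 high ones lay at about the same level as each other.

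**Figure D1:**
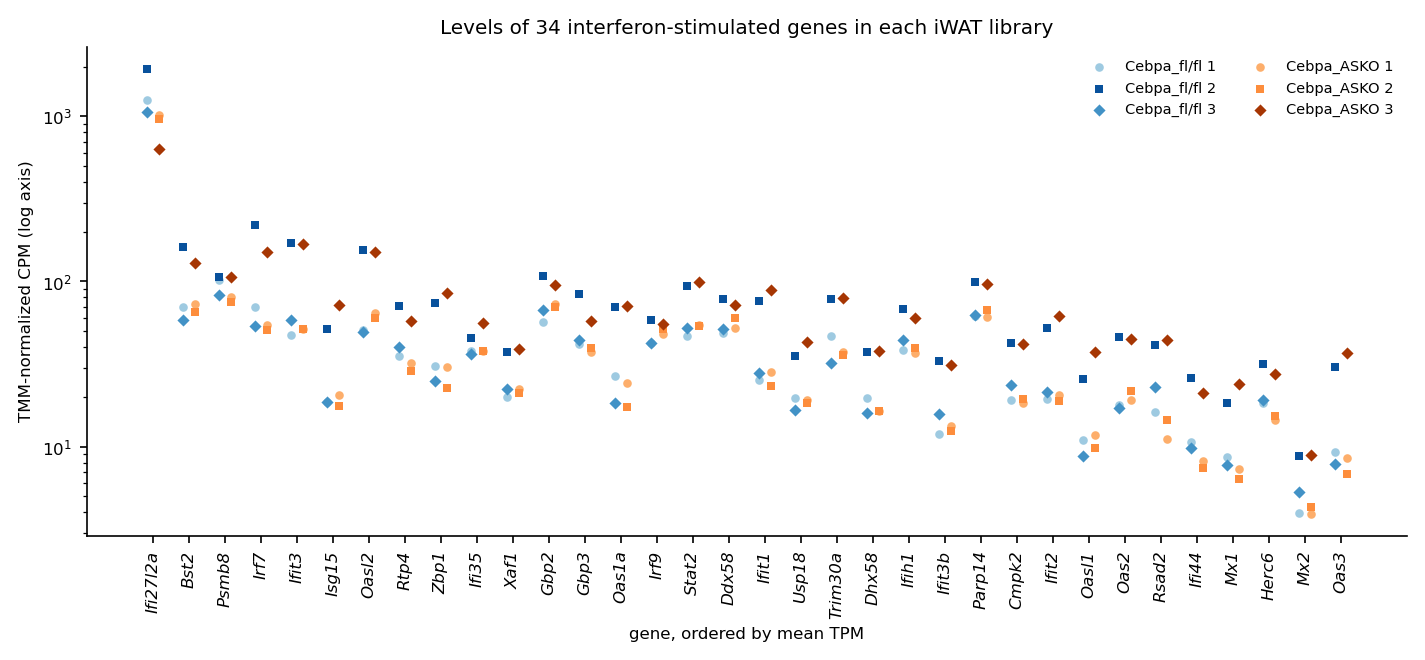
TMM-normalized CPM (log axis) of the 34 members in each library, ordered by mean TPM, with Cebpa_fl/fl in blue and Cebpa_ASKO in orange and 1 point per library. Cebpa_fl/fl 2 is the uppermost blue point for all 34 genes and Cebpa_ASKO 3 the uppermost orange point for all but *Ifi27l2a*, where it is the lowest point of all.

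Expressed as a ratio to the mean of the other 2 libraries of the genotype, the median member was at 2.04 in Cebpa_fl/fl 2 and at 2.20 in Cebpa_ASKO 3. Over all genes tested the same medians were 0.991 and 0.980. In Cebpa_fl/fl 2 the ratios ran from 1.15 for *Psmb8*, an interferon-induced subunit of the immunoproteasome, to 3.55 for *Oas3*. In Cebpa_ASKO 3 they ran from 0.642 for *Ifi27l2a* to 4.80 for *Oas3*. In the remaining libraries the member medians lay between 0.614 and 0.634, since the mean they are divided by includes the high library of the genotype. At least 2-fold ratios in both Cebpa_fl/fl 2 and Cebpa_ASKO 3 were found for 16 members and for 96 of all genes tested (0.597%). The 16 were *Irf7*, *Dhx58*, *Zbp1*, *Ifit1*, *Ifit2*, *Ifit3*, *Ifit3b*, *Oas1a*, *Oas2*, *Oas3*, *Oasl1*, *Oasl2*, *Mx1*, *Rsad2*, *Isg15* and *Ifi44*. These libraries were singled out after their values were seen, so the ratios describe them and were not tested.

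**Figure D2:**
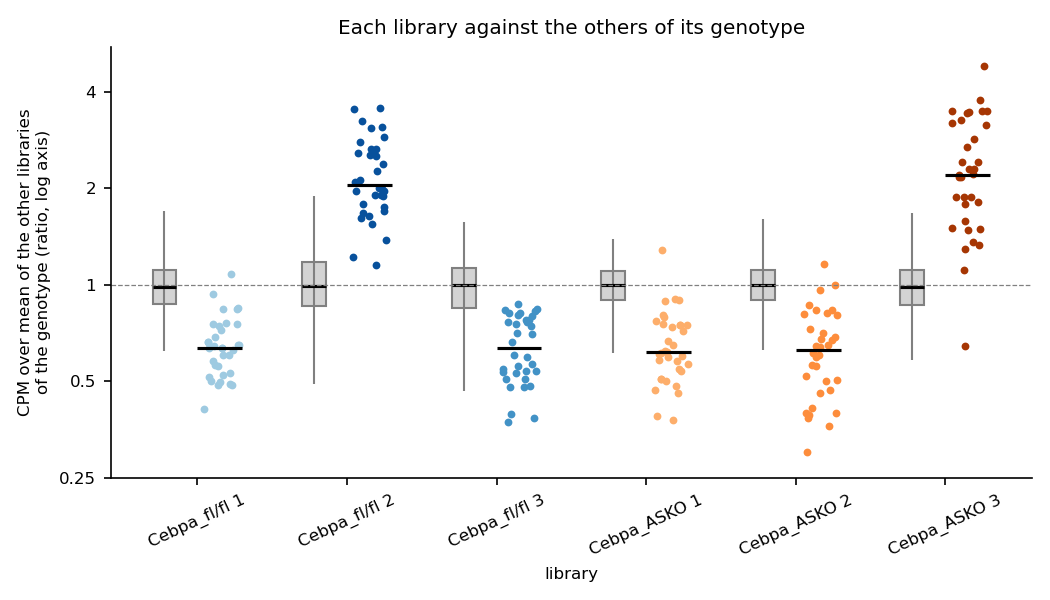
Ratio of each library's CPM to the mean of the other 2 libraries of its genotype (log axis). Coloured points are the 34 members with their median as a line; grey boxes span the 25th to 75th percentile of the 16069 genes tested, with whiskers from the 5th to the 95th. All 34 members lie above 1 in Cebpa_fl/fl 2, and 33 in Cebpa_ASKO 3, with medians of 2.04 and 2.20.

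Members with a larger ratio in one of these libraries also tended to have a larger ratio in the other, apart from *Ifi27l2a*. Across the 34 members the log2 ratios in Cebpa_fl/fl 2 and Cebpa_ASKO 3 had a Pearson's r of 0.79 (Spearman's rho 0.87), and r was 0.83 over the 33 without *Ifi27l2a*. Across 13405 tested genes with a mean TPM of at least 1, r was 0.09. Genes of 1 library share its RNA and depth and are not independent replicates, so these values are descriptions.

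**Figure D3:**
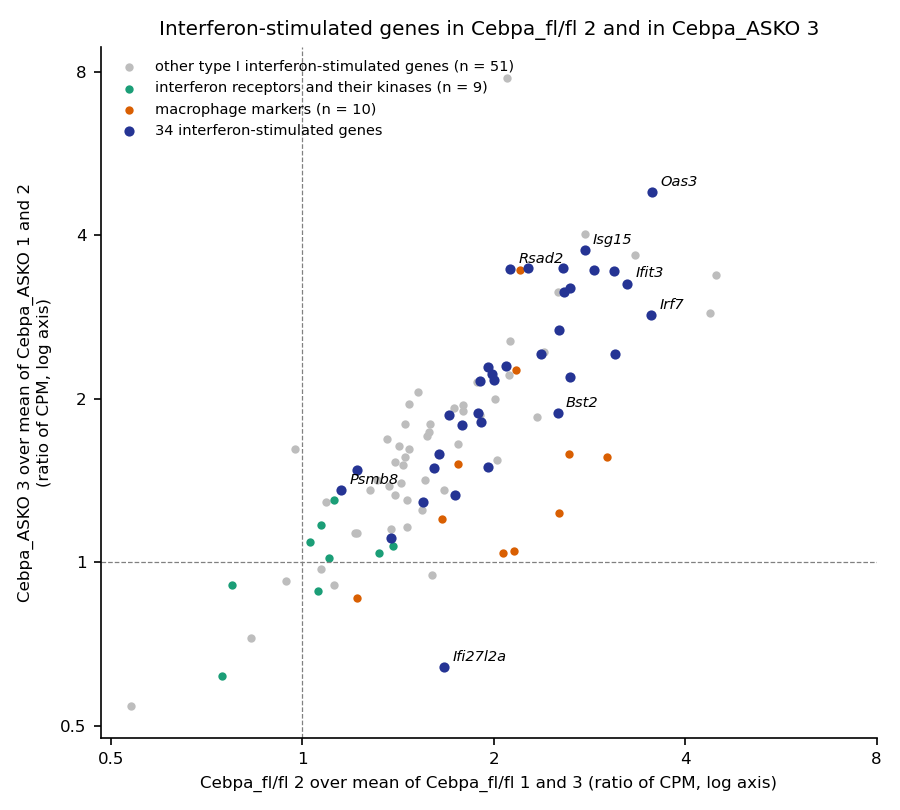
Ratio of Cebpa_fl/fl 2 to the mean of Cebpa_fl/fl 1 and 3 (x, log axis) against the ratio of Cebpa_ASKO 3 to the mean of Cebpa_ASKO 1 and 2 (y, log axis), 1 point per gene. The members (dark blue) run along the diagonal up to *Oas3* at 3.55 and 4.80, the interferon receptors and kinases (green) have medians of 1.07 and 1.04 with *Ifnlr1* lowest at 0.747 and 0.617, and *Ifi27l2a* lies apart at 1.67 and 0.642.

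Between the genotypes, no member was called. Of the 34 members 0 had an adjusted p below 0.05 in edgeR's quasi-likelihood test after Benjamini-Hochberg adjustment over the 16069 genes, and DESeq2 also called 0, whereas 840 of all genes tested (5.23%) were called. Without adjustment 1 member, *Ifi27l2a*, had a p below 0.05. The fitted log2 fold changes of Cebpa_ASKO over Cebpa_fl/fl were above 0 for 17 members and below 0 for 17, with a median of -0.01 beside 0.02 over all genes. They ran from -0.69 for *Ifi27l2a* to 0.38 for *Oasl1*.

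The precision of these fold changes was low. The median standard error was 0.430 for the members and 0.167 over all genes, and 32 of the 34 members had a standard error above the latter. The SD of log2 CPM within a genotype had a median of 0.649 for the members and 0.182 for all genes. The 95% interval of the median member reached 1.03 on the log2 scale to either side, so a change of up to about 2-fold either way lay within it. For 33 of the 34 members the interval contained 0. The genotypes did not overlap for 1 member, *Ifi27l2a*, while they did not overlap for 26.1% of all genes tested.

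Leaving out Cebpa_fl/fl 2 and Cebpa_ASKO 3, an alternative chosen after seeing the data, lowered the median standard error of the members to 0.125. The median distance from the fitted value to the end of its interval fell to 0.31. These libraries were left out because the members were high in them, so the smaller spread follows from that choice. Intervals and p-values without them, here and for single genes below, are descriptions and no test of the genotype. In this fit 0 members were called, although 1180 of 16080 genes were, and the smallest adjusted p of a member was 0.126, for *Oasl2*. The median member log2 fold change was -0.10, with 13 above 0. The members with an unadjusted p below 0.05 were *Irf9*, *Oasl2*, *Rsad2*, *Herc6* and *Rtp4*. The share of all genes at that p was not counted. Leaving out only Cebpa_fl/fl 2 gave a median of 0.39 with 32 members above 0, and leaving out only Cebpa_ASKO 3 gave -0.57 with 1 above 0. The balance also shifted on leaving out any of the other libraries, with 5 members above 0 without Cebpa_fl/fl 1, 4 without Cebpa_fl/fl 3, and 26 without either Cebpa_ASKO 1 or Cebpa_ASKO 2. The medians of these fits lay between -0.18 and 0.15, so the sign for the list depended on which libraries were in the fit.

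**Figure D4:**
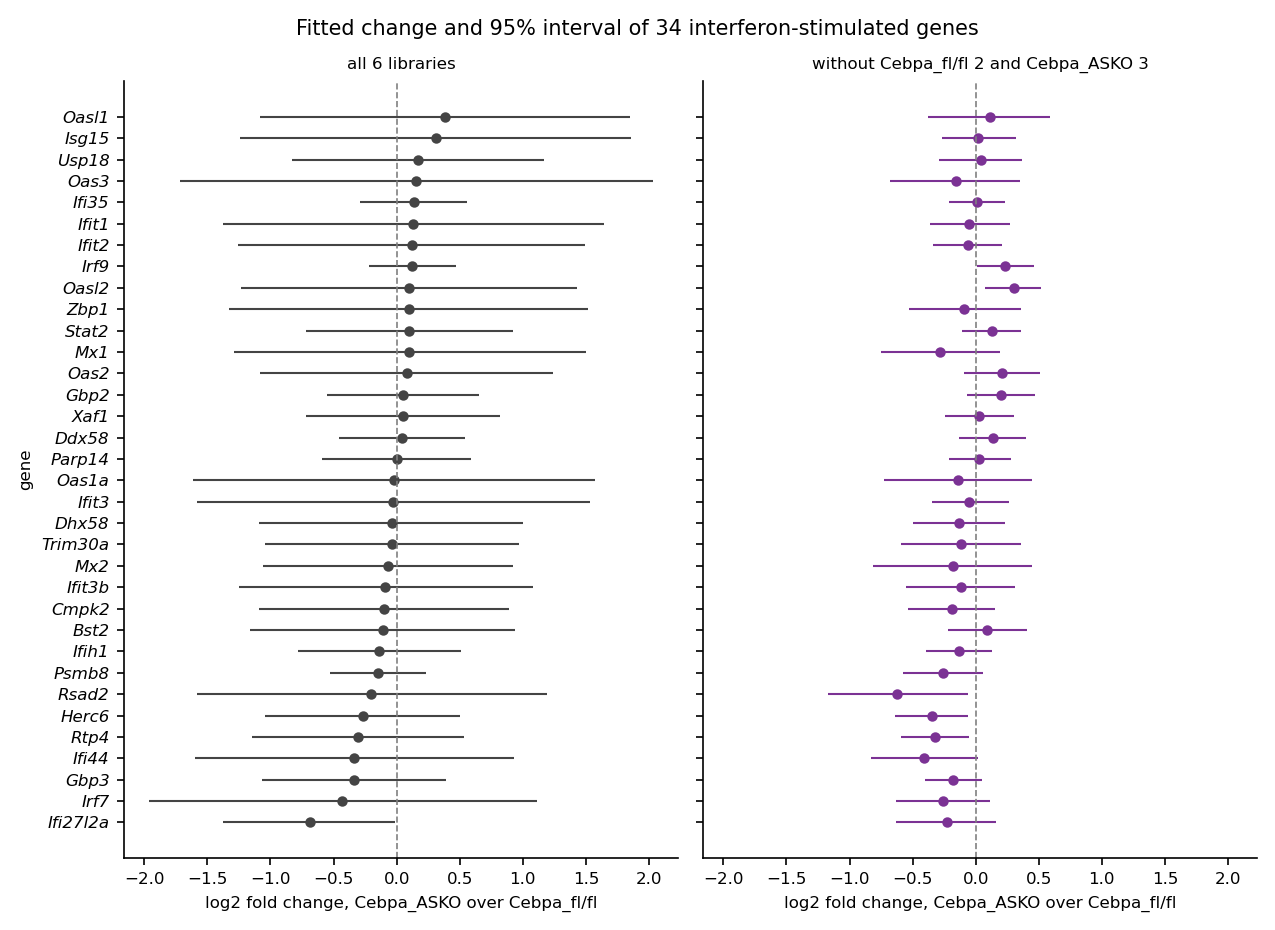
Fitted log2 fold change of Cebpa_ASKO over Cebpa_fl/fl (point) with its 95% interval (line) for the 34 members, with all 6 libraries on the left and without Cebpa_fl/fl 2 and Cebpa_ASKO 3 on the right. On the left 33 of 34 intervals contain 0 and the median distance from the point to either end is 1.03. On the right it is 0.31, with libraries left out because the members were high in them.

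STAT2 and IRF9 are parts of the complex that binds the ISRE, and IRF7 is the factor that drives a second wave of interferon transcription. *Irf7* (chromosome 7, 141262706 to 141266481) was at 70.4, 220 and 54.1 CPM in Cebpa_fl/fl and at 54.3, 51.1 and 150 CPM in Cebpa_ASKO. A single library of each genotype was high and the other 4 lay between 51.1 and 70.4, so the genotypes overlapped. The log2 fold change was -0.43 (95% interval -1.96 to 1.11, adjusted p = 0.793). *Stat2* measured 46.5, 94.3 and 52.2 CPM against 54.7, 54.1 and 98.6 CPM. *Irf9* varied less, with 42.2, 58.4 and 42.2 CPM against 48.3, 51.9 and 55.4 CPM. Its SD of log2 CPM within a genotype was 0.20, while that of *Irf7* was 0.98, so the complex's subunit and the factor it induces differed widely in spread. Without Cebpa_fl/fl 2 and Cebpa_ASKO 3, the log2 fold change of *Irf9* was 0.23 (95% interval 0.01 to 0.46, adjusted p = 0.199). Those libraries were left out after their values were seen, so this interval is a description.

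The cytosolic sensors RIG-I (*Ddx58*), MDA5 (*Ifih1*) and LGP2 (*Dhx58*) recognise viral RNA, and ZBP1 recognises left-handed nucleic acid. *Zbp1* was at 30.7, 73.6 and 24.9 CPM in Cebpa_fl/fl and at 30.5, 22.7 and 85.0 CPM in Cebpa_ASKO. *Dhx58* gave 19.7, 37.3 and 15.9 CPM against 16.4, 16.4 and 37.9 CPM. *Ddx58* and *Ifih1* were flatter, at ratios of 1.55 and 1.64 in Cebpa_fl/fl 2 and 1.29 and 1.58 in Cebpa_ASKO 3. All 4 sensors had fitted log2 fold changes between -0.14 and 0.10.

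The IFIT proteins bind viral RNA and hold back its translation, and their genes lie side by side on chromosome 19 between 34550694 and 34650009. *Ifit1* was at 25.3, 76.3 and 27.8 CPM in Cebpa_fl/fl and at 28.5, 23.3 and 89.4 CPM in Cebpa_ASKO. *Ifit3* reached 172 CPM in Cebpa_fl/fl 2 and as much as 169 CPM in Cebpa_ASKO 3, with 47.1 to 58.7 CPM in the other libraries. *Ifit2* reached 52.4 and 61.6 CPM in the same libraries, with 18.9 to 21.3 CPM elsewhere. The 4 IFIT genes had median ratios of 2.73 and 3.20 in these libraries, above those of the sensors (1.87 and 1.94). Of the 31-base stretches in *Ifit3* transcripts 61.8% also occur in *Ifit3b*, so how kallisto divided reads between this pair is uncertain. *Ifit3b* was at 32.8 and 31.1 CPM in the high libraries and between 11.9 and 15.7 CPM in the others.

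The OAS enzymes make 2′-5′-linked oligoadenylates that activate RNase L, and OASL proteins are relatives of theirs. As a family they had the highest median ratios of the 8 role groups, 3.09 in Cebpa_fl/fl 2 and 3.44 in Cebpa_ASKO 3. *Oas3* (chromosome 5, 120753098 to 120777661), the member with the lowest mean TPM (4.74), was at 9.27, 30.3 and 7.80 CPM in Cebpa_fl/fl and at 8.56, 6.87 and 37.0 CPM in Cebpa_ASKO. Its log2 fold change of 0.15 had a 95% interval from -1.72 to 2.03 (adjusted p = 0.948). *Oasl1* (chromosome 5, 114923240 to 114937915) was at 11.0, 25.5 and 8.82 CPM against 11.8, 9.78 and 37.5 CPM. It had the highest fitted change of the members, 0.38 (95% interval -1.08 to 1.85, adjusted p = 0.806), and this was 0.11 without Cebpa_fl/fl 2 and Cebpa_ASKO 3. *Oasl2* was at 50.9, 156 and 49.5 CPM against 64.8, 59.8 and 150 CPM. Its 2 lower Cebpa_ASKO values lay above the 2 lower Cebpa_fl/fl values. Without the high libraries, left out after their values were seen, its log2 fold change was 0.30 (95% interval 0.07 to 0.52, adjusted p = 0.126). *Oas2* measured 17.8, 46.1 and 17.2 CPM against 19.2, 21.6 and 44.7 CPM. *Oas1a* gave 26.7, 69.9 and 18.5 CPM against 24.2, 17.4 and 71.5 CPM, and since 68.8% of its 31-base stretches occur in other genes, chiefly *Oas1g*, its level is uncertain.

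Viperin (*Rsad2*) makes a chain-terminating nucleotide from the product of its neighbour *Cmpk2*, and both genes lie on chromosome 12 between 26442746 and 26479837. *Rsad2* was at 16.1, 41.4 and 22.9 CPM in Cebpa_fl/fl and at 11.1, 14.4 and 44.4 CPM in Cebpa_ASKO. *Cmpk2* followed with 19.1, 42.6 and 23.6 CPM against 18.3, 19.4 and 41.8 CPM. Without the high libraries *Rsad2* had a log2 fold change of -0.62 (95% interval -1.17 to -0.06, adjusted p = 0.173), and *Cmpk2* one of -0.19. Those libraries were left out because the members were high in them, so these values are descriptions. The MX GTPases trap viral nucleocapsids, and C57BL/6 mice are known to carry defective *Mx* genes. *Mx1* was at 8.69, 18.5 and 7.69 CPM against 7.29, 6.38 and 23.8 CPM, and its transcript annotated as protein-coding held a mean of 14.3% of the gene's TPM. *Mx2*, with the lowest count of any member in a library (124), was at 3.94, 8.77 and 5.32 CPM against 3.93, 4.31 and 8.91 CPM.

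ISG15 is a ubiquitin-like protein that is joined to other proteins after interferon, HERC6 is the ligase for it in mice, and USP18 removes it and also blocks the receptor. *Isg15* (chromosome 4, 156199424 to 156200818) was at 18.6, 51.6 and 18.6 CPM in Cebpa_fl/fl and at 20.5, 17.7 and 71.8 CPM in Cebpa_ASKO. The 4 lower libraries of both genotypes lay within 17.7 to 20.5 CPM. Its log2 fold change was 0.31 (95% interval -1.24 to 1.86, adjusted p = 0.857) with all libraries and 0.02 (95% interval -0.27 to 0.32) without the high ones. *Usp18* (chromosome 6, 121245906 to 121270917) measured 19.6, 35.6 and 16.6 CPM against 19.1, 18.5 and 43.2 CPM, a log2 fold change of 0.17 (95% interval -0.83 to 1.17, adjusted p = 0.880). *Herc6* was at 18.3, 31.8 and 19.1 CPM against 14.4, 15.3 and 27.7 CPM. For *Herc6* the genotypes overlapped. Its log2 fold change without the high libraries, left out after their values were seen, was -0.35 (95% interval -0.64 to -0.06, adjusted p = 0.150).

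Guanylate-binding proteins attack the membranes around intracellular microbes and respond to interferon-gamma as well as to type I interferon. *Gbp3* (chromosome 3, 142560026 to 142573209) was at 41.6, 83.9 and 44.2 CPM in Cebpa_fl/fl and at 37.3, 39.4 and 57.4 CPM in Cebpa_ASKO. Its log2 fold change was -0.34 (95% interval -1.07 to 0.39, adjusted p = 0.626). *Gbp2* was at 56.7, 108 and 66.9 CPM against 73.4, 70.3 and 95.2 CPM. The pair had the lowest median ratio of the role groups in Cebpa_ASKO 3, 1.41, while the ratio in Cebpa_fl/fl 2 was 1.85.

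*Ifi27l2a* was the member that did not follow the rest. It encodes a small membrane protein and was by far the most abundant member, with a mean of 4877 TPM, rank 17 of all symbols. *Bst2* came next at 189 TPM, and the median member was at 23.3 TPM. *Ifi27l2a* (chromosome 12, 103442167 to 103443680) was at 1254, 1929 and 1056 CPM in Cebpa_fl/fl and at 1023, 961 and 637 CPM in Cebpa_ASKO. Cebpa_fl/fl 2 was the highest library, as for the other members, but Cebpa_ASKO 3 was the lowest of all 6. The means were 1413 ± 458 and 874 ± 208 CPM (SD, n = 3 each), and the log2 fold change was -0.69 (95% interval -1.38 to -0.01). The unadjusted p was 0.0478 and the adjusted p 0.247 (edgeR, quasi-likelihood test, Benjamini-Hochberg adjustment). An exact permutation test of 3 against 3 libraries cannot give a p below 0.1. Without Cebpa_fl/fl 2 and Cebpa_ASKO 3 the change was -0.23 (95% interval -0.63 to 0.16). GENCODE M21 lists 1 transcript for the gene.

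Tetherin (*Bst2*) holds budding virions at the cell surface. It was at 69.7, 162 and 58.7 CPM in Cebpa_fl/fl and at 73.4, 65.2 and 130 CPM in Cebpa_ASKO. *Ifi44* (chromosome 3, 151730922 to 151749960) measured 10.7, 25.9 and 9.75 CPM against 8.24, 7.38 and 21.0 CPM, a log2 fold change of -0.34 (95% interval -1.60 to 0.93, adjusted p = 0.802). *Rtp4* (chromosome 16, 23520291 to 23614222), a receptor chaperone, was at 35.4, 71.5 and 40.2 CPM against 32.2, 28.8 and 57.4 CPM. Its log2 fold change was -0.31 with all libraries (95% interval -1.15 to 0.53, adjusted p = 0.708). Without the high libraries, left out after their values were seen, it was -0.32 (95% interval -0.59 to -0.05, adjusted p = 0.149). For both *Ifi44* and *Rtp4* the genotypes overlapped. *Ifi35* (chromosome 11, 101448407 to 101458698) was among the steadiest members, at 38.2, 45.4 and 36.2 CPM against 37.7, 38.1 and 56.0 CPM. Its log2 fold change was 0.14 (95% interval -0.29 to 0.56, adjusted p = 0.753).

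*Trim30a*, a ubiquitin-ligase family member, reached 78.7 CPM in Cebpa_fl/fl 2 and a similar 79.9 CPM in Cebpa_ASKO 3, with 32.0 to 46.8 CPM elsewhere. *Xaf1*, a gene that promotes cell death, reached 37.6 and 39.1 CPM in these libraries, with 19.9 to 22.4 CPM elsewhere. *Parp14*, an ADP-ribosyltransferase, was at 99.9 and 96.0 CPM there and between 61.1 and 67.6 CPM in the others. *Psmb8* was at 102, 106 and 83.1 CPM against 80.8, 75.0 and 106 CPM, the smallest ratio of all members in Cebpa_fl/fl 2. Across these 4 genes the ratio was at most 2.17, in *Trim30a*.

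Interferon transcripts themselves were near the limit of detection. Of 21 type I, II and III interferon genes none passed the filter on low counts, and 16 had no count in any library. *Ifng* had 9.0, 5.0 and 1.0 estimated counts in Cebpa_fl/fl and 4.0, 1.0 and 2.0 in Cebpa_ASKO, and *Ifnb1* had at most 2.0. *Ifnz* had 3.3, 5.7 and 3.4 counts in Cebpa_fl/fl, with Cebpa_fl/fl 2 the highest, and 0.0 in every Cebpa_ASKO library. These counts are too low for a test. Summed over the 21 genes the libraries held 13.3, 10.7 and 6.4 counts and 5.0, 2.0 and 2.0 counts, and neither Cebpa_fl/fl 2 nor Cebpa_ASKO 3 held the highest sum of its genotype. A gene without a count could still be present at up to 3 counts, or between 0.0636 and 0.0951 CPM depending on the library, counting error only.

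For the receptors and their kinases the ratios were smaller. Highest of their genotype were 7 of 9 genes in Cebpa_fl/fl 2 and 5 in Cebpa_ASKO 3, against 37.0% and 33.2% of all genes tested. Of the 9 genes tested edgeR called 0 and DESeq2 called 1, *Ifnlr1*, beside 840 of 16069 and 1813 of 23368 genes over all. The 9 genes had median ratios of 1.07 in Cebpa_fl/fl 2 and 1.04 in Cebpa_ASKO 3. *Ifnar2* was at 82.0, 87.4 and 83.0 CPM in Cebpa_fl/fl and at 86.1, 80.1 and 73.6 CPM in Cebpa_ASKO, and *Jak1* at 216, 227 and 189 CPM against 202, 191 and 256 CPM. *Ifnlr1*, the receptor chain for type III interferon, was named after its values were seen. It was at 7.48, 5.85 and 8.18 CPM against 14.2, 17.6 and 9.81 CPM, and its genotypes did not overlap (log2 fold change 0.95, 95% interval 0.37 to 1.53, adjusted p = 0.0821 in edgeR). It was called by edgeR without Cebpa_ASKO 3 and without both Cebpa_fl/fl 2 and Cebpa_ASKO 3.

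Other STAT and IRF factors numbered 7, with 0 called. *Irf3*, which is present before any signal, stayed between 51.3 and 52.7 CPM in all 6 libraries. Among 8 inhibitors of interferon signalling 0 were called, and their median ratios were 0.982 in Cebpa_fl/fl 2 and 1.04 in Cebpa_ASKO 3. Of the 8, 3 were highest of their genotype in Cebpa_fl/fl 2 and 3 in Cebpa_ASKO 3, against 37.0% and 33.2% of all genes tested. *Socs1*, named after its values were seen, was highest in both, at ratios of 1.26 and 1.76. *Socs3* ran opposite to the members, at 51.2, 22.0 and 55.2 CPM against 100, 138 and 30.9 CPM, so that Cebpa_fl/fl 2 and Cebpa_ASKO 3 were the lowest of their genotypes. Of 10 adaptors and kinases of nucleic acid sensing, among them *Mavs*, *Tmem173*, *Myd88* and *Tbk1*, 0 were called, and their median ratios were 1.03 and 1.22.

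Further interferon targets showed the pattern of the members. Of 51 other type I interferon-stimulated genes tested, 44 were highest in Cebpa_fl/fl 2 among Cebpa_fl/fl and 44 in Cebpa_ASKO 3 among Cebpa_ASKO, with median ratios of 1.52 and 1.62. Over all genes tested, 37.0% and 33.2% were highest in these libraries. *Ifitm3*, which keeps viruses from leaving endosomes, was at 180, 400 and 162 CPM against 231, 183 and 382 CPM. *Ifi27*, the most abundant of the other type I interferon-stimulated genes, did not share the pattern, at 503, 423 and 515 CPM against 726, 604 and 482 CPM. Of 16 GTPases induced by interferon-gamma, 14 and 15 were highest in the same libraries, and *Irgm1* was at 37.5, 70.8 and 40.0 CPM against 42.1, 37.4 and 72.7 CPM. In both lists 0 genes were called between the genotypes. Over all of these lists together 122 genes were tested and 0 were called, against 5.23% of all genes tested. Of the 122, 12 had an unadjusted p below 0.05 in edgeR, and the share of all genes at that p was not counted. DESeq2 called 8 of the 122, beside 1813 of 23368 genes over all, which is also more than edgeR called.

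Genes of antigen presentation shared the pattern in part. Against 37.0% and 33.2% of all genes tested, 11 of 14 genes of MHC class I and antigen processing were highest in Cebpa_fl/fl 2 and 8 in Cebpa_ASKO 3 of their genotypes. The 14 genes had median ratios of 1.23 and 1.07. The fitted change was below 0 in Cebpa_ASKO for 12 of them, with a median log2 fold change of -0.30, and edgeR called 0. *B2m*, the light chain of class I molecules, was at 1571, 2256 and 1728 CPM in Cebpa_fl/fl and at 1207, 1096 and 1055 CPM in Cebpa_ASKO (log2 fold change -0.73, adjusted p = 0.0816). Its genotypes did not overlap, and Cebpa_ASKO 3 was its lowest library, as for *Ifi27l2a*. *H2-K1* was at 1266, 1488 and 1140 CPM against 966, 874 and 857 CPM, with Cebpa_ASKO 3 again the lowest. DESeq2 called *B2m*, *H2-K1*, *H2-D1*, *Erap1* and *Nlrc5*, beside 1813 of 23368 genes over all, so the call for these genes depended on the tool. In Cebpa_ASKO 3 the ratio was 1.05 for *Erap1* and 1.31 for *Nlrc5*, against 0.917 for *B2m*. Of 7 MHC class II genes 0 were called, and *Cd74* was at 1188, 1027 and 571 CPM against 925, 826 and 777 CPM.

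Marker lists of other cell types were in part highest in the same libraries as the members. The 10 macrophage markers summed to 1180, 2074 and 802 CPM in Cebpa_fl/fl and to 1253, 1369 and 1601 CPM in Cebpa_ASKO. All 10 were highest in Cebpa_fl/fl 2 and 8 in Cebpa_ASKO 3, against 37.0% and 33.2% of all genes tested. Their median ratios were 2.16 and 1.38, against 2.04 and 2.20 for the members. The 8 fibroblast and progenitor markers summed to 6642, 11570 and 6541 CPM against 8035, 7638 and 9558 CPM, and were at median ratios of 1.71 and 1.26. The part of either list in the members' levels was not tested. T and NK cell markers summed to 151, 31.1 and 17.6 CPM against 12.6, 12.9 and 15.2 CPM, and B cell markers to 547, 96.8 and 65.9 CPM against 73.6, 64.7 and 87.5 CPM. Both were highest in Cebpa_fl/fl 1, where 0 of the 34 members were highest. Median ratios of the T and NK cell markers were 0.336 in Cebpa_fl/fl 2 and 1.23 in Cebpa_ASKO 3. Of the B cell markers 6 were tested, with median ratios of 0.0419 and 3.07, and all 6 were highest of their genotype in Cebpa_ASKO 3. The part of these lists in the members' levels was not tested either. Plasmacytoid dendritic cell markers, a list of 6 that includes *Bst2*, had median ratios of 0.707 and 0.975 in Cebpa_fl/fl 2 and Cebpa_ASKO 3. Conventional dendritic cell markers had median ratios of 0.813 and 1.08, and neutrophil markers 0.780 and 1.64. Of 7 endothelial markers, at median ratios of 0.946 and 1.23, *Emcn* and *Cldn5* were called lower in Cebpa_ASKO. The 6 mammary epithelium markers summed to 1092, 745 and 1633 CPM against 2204, 2089 and 2275 CPM. Their median ratios were 0.616 and 0.888, and 0 were called. Skeletal muscle markers summed to 481, 627 and 482 CPM against 2570, 4655 and 1645 CPM, with median ratios of 1.37 and 0.475. No marker of these lists was at 0 in every library.

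**Figure D5:**
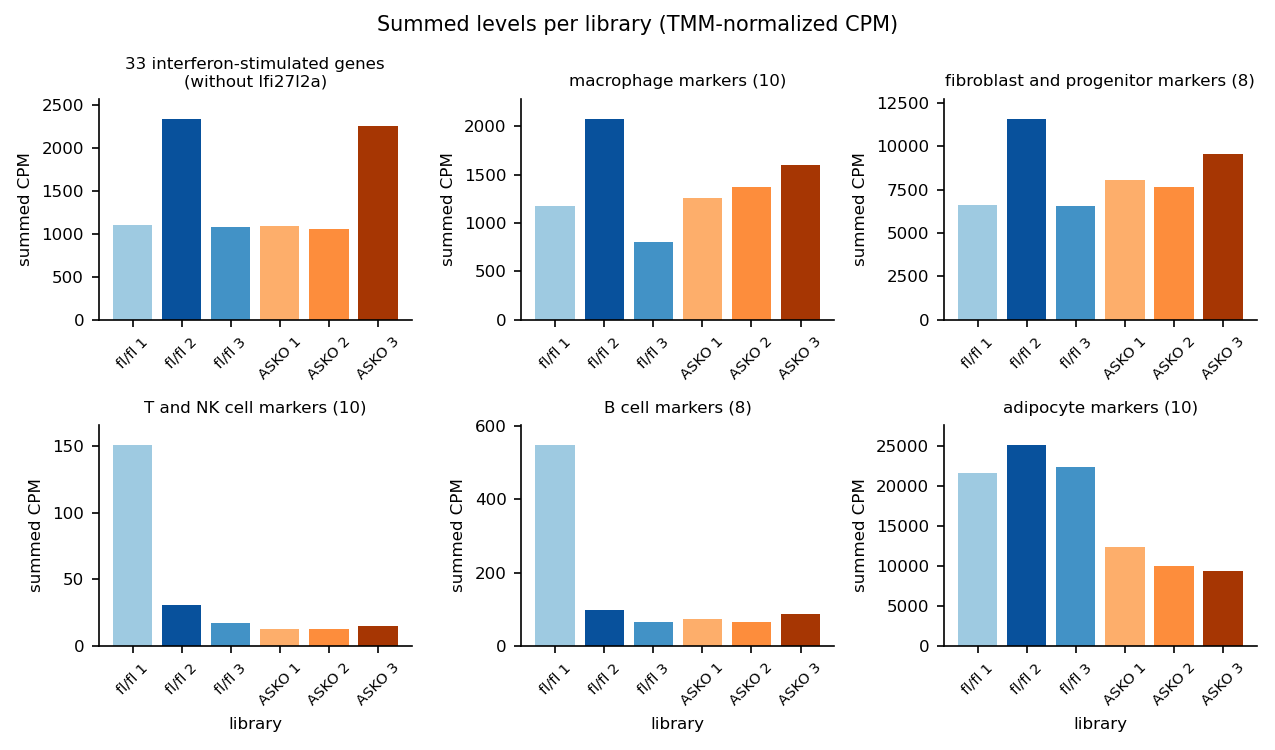
Summed TMM-normalized CPM per library for 33 members and for 5 marker lists, with the number of genes in brackets, 1 bar per library and axes from 0. The members' bars are about equal in 4 libraries and raised in Cebpa_fl/fl 2 (2338) and Cebpa_ASKO 3 (2252); macrophage and fibroblast bars are also highest in Cebpa_fl/fl 2, and lymphocyte bars are highest in Cebpa_fl/fl 1.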

How the data were processed

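The bulk RNA-seq libraries of female iWAT were grouped by their labels into 3 Cebpa_fl/fl and 3 Cebpa_ASKO. Each library came from 1 mouse. The submitters' processing notes name kallisto 0.44.0 and the builds GRCm38.p6 and GRCh38.p12. The transcript annotation is not given in the sources used here. The authors deposited an estimated count for every transcript, without normalization, with its effective length beside it. The authors also deposited TPM per transcript and, summed, per gene symbol. TPM is a share per length and was used for order between genes. kallisto divides reads among similar transcripts, which makes near-identical genes less certain.

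Transcripts were matched to GENCODE M21 (GRCm38), and 116816 of 118489 (98.6%) matched. Estimated counts were summed per symbol and rounded to whole numbers. The comparison of the genotypes used edgeR 4.0.16 (glmQLFit and glmQLFTest) in R 4.3.3 with TMM scaling, filterByExpr and Benjamini-Hochberg adjustment over 16069 genes, called at an adjusted p below 0.05. The study names DESeq2, and DESeq2 1.42.0 was an alternative here, as was limma 3.58.1 on log2(TPM + 1), which understates changes of low genes. Intervals are 95% intervals of the fitted log2 fold change. Libraries of 1 genotype differed beyond sampling noise. The ratio of a library is its CPM over the mean CPM of the other 2 libraries of its genotype. The code was tested on simulated counts with known changes.

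The members and the gene lists were chosen with earlier results of these data known. All 34 members are named. Of each further interferon list, genes that were called and up to 4 with the highest mean TPM could be named. Marker lists are given as sums per library, median ratios or called genes, and the single macrophage markers in the closing section were chosen after their values were seen. The 5 members with the largest fitted change in each direction are given library by library with their intervals.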

Additional observations from a re-analysis of the deposited data

How the results depend on the processing

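Under all 17 alternatives 0 of the 34 members were called, and the smallest adjusted p of a member was 0.0840 (*Ifi27l2a*, DESeq2). Between 1 and 16 members changed sign, most of them when a single library was left out. The count of called genes, 840 of 16069, became 1813 of 23368 with DESeq2, 512 of 13540 with limma on log2(TPM + 0.1) and 349 of 23566 with limma without a filter. It ranged from 311 to 922 on leaving out single libraries. With the replicate number as a block (replicate block) 370 genes and 0 members were called, and the median member log2 fold change was -0.02. Deviations of same-numbered libraries correlated at 0.10, -0.01 and -0.26, so the numbers were not taken as pairs. Of the further interferon lists, DESeq2 called 8 genes (*B2m*, *Bcl2l14*, *Erap1*, *Gbp4*, *H2-D1*, *H2-K1*, *Ifnlr1* and *Nlrc5*), and leaving out single libraries gave between 0 and 2 (*Gbp4* and *Ifnlr1*, without Cebpa_ASKO 3). Without Cebpa_fl/fl 2 and Cebpa_ASKO 3, chosen after seeing the data, 6 were called (*Gbp4*, *Gvin1*, *Ifnlr1*, *Lgals3bp*, *Nlrc5* and *Socs3*), beside 1180 of 16080 genes over all. The cause of these differences was not tested. On the scale of the deposited TPM, 33 members but also 26.0% of genes tested were highest in both Cebpa_fl/fl 2 and Cebpa_ASKO 3, and 21 members (0.933% of genes) were at least 2-fold higher in both. With 3 libraries a genotype, of which 1 was high for the members, the interval of the median member reached 1.03 on the log2 scale to either side, while that of single members was narrower (-0.22 to 0.47 for *Irf9*).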

Other observations

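Of the further interferon-list genes, 10 were at least 2-fold above the other libraries of their genotype in both Cebpa_fl/fl 2 and Cebpa_ASKO 3, namely *Apol9a*, *Apol9b*, *Ifi204*, *Ifi47*, *Ms4a4c*, *Oas1g*, *Phf11b*, *Phf11d*, *Slfn1* and *Tgtp2*. They were chosen by these values, which are given as a description. *Ms4a4c* had the highest ratio in Cebpa_ASKO 3, 7.78, and was at 13.6, 16.5 and 2.18 CPM in Cebpa_fl/fl and 3.20, 2.40 and 21.8 CPM in Cebpa_ASKO. *Oas1g*, which shares sequence with *Oas1a*, was at 7.93, 24.0 and 6.48 CPM against 6.91, 6.79 and 25.2 CPM. *Apol9a* was at 3.39, 16.8 and 4.30 CPM against 3.80, 5.11 and 12.8 CPM. Of the 10 macrophage markers 2 met the same criterion, *Fcgr1* at 13.9, 27.0 and 10.5 CPM against 13.6, 11.4 and 43.3 CPM and *Itgam* at 54.1, 95.9 and 34.2 CPM against 43.5, 43.9 and 98.7 CPM. *Fcgr1* encodes an Fc receptor that interferon is known to induce. The other 8 macrophage markers, among them *Lyz2* and *Csf1r*, were at ratios of 1.22 to 3.01 in Cebpa_fl/fl 2 and 0.858 to 1.58 in Cebpa_ASKO 3.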
